A study of Mus musculus with 4 samples.

Results

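The genes described here are 32 p53 targets, Bcl2 family members and caspase pathway genes, read in sorted satellite cells of the mouse, the stem cells that rest along muscle fibres. They were chosen by name: every probe set of the deposited value table whose platform gene symbol is on the list belongs to the set. This gave 77 probe sets of 30 genes among 45101 probe sets in all. No probe set carried the symbol Trp53, the gene of p53 itself, or Bax, the gene of a pore-forming death effector, so these 2 genes were not analysed here. A total of 63 probe sets of 28 genes passed the filter on low signals, a mean log2 value at or above that of the middle probe set, which corresponds to a signal of 63.9. The genes left out by it were Bbc3 and Perp, whose only probe sets were dim. The study compared satellite cells that had lost the calcitonin receptor gene Calcr (conditional knockout, cKO; Calcr flox/flox) with control cells (Calcr +/+). Mice of both groups carried Pax7Cre/+ and Rosa-YFP/YFP, were 10 weeks old and had received tamoxifen, and YFP-positive cells were sorted 2 weeks later and used without culture. The Cre is the tamoxifen-dependent CreERT2 expressed with Pax7, so both groups carry the Pax7 Cre allele and deletion is limited to cells in which Cre was active. Each group had 2 biological replicates on 1 array each. The labels do not say how many mice went into a sample.

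p53 is a transcription factor that is stabilised by DNA damage and other stress. It raises genes that stop the cell cycle, repair damage or start cell death, and among its targets is Mdm2, whose product marks p53 for destruction and closes a feedback loop. In the mitochondrial death pathway, BH3-only proteins of the Bcl2 family free or activate the pore formers, cytochrome c leaves the mitochondria, and Apaf1 assembles with it to activate caspase 9; Bcl2, Bcl-xL and Mcl-1 hold this pathway back, and Xiap blocks the caspases. Death receptors such as Fas start a second route through caspase 8. Satellite cells rest outside the cell cycle for long periods, and p53 activity is known to bear on their survival when they are activated.

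Calcr, the check of the labels, read 1268 and 1424 on the control arrays and 568 and 684 on the cKO arrays, in the direction the labels give, though the labels do not say whether its probes fall in the deleted part of the gene. Median signals of the 4 arrays ran from 57.9 to 70.4. All 10 satellite cell markers were above the filter signal on every array. Markers of other cell types differed between arrays. The summed signal of 16 endothelial markers was 11060 and 1351 on control replicates 1 and 2, and 10131 and 1535 on cKO replicates 1 and 2. VE-cadherin (Cdh5) read 1044, 79.7, 1060 and 110 in the same order. Pericyte and smooth muscle markers summed to 18220 and 20932 on replicates 1 and to 12904 and 10237 on replicates 2 (12 of 12 measured). These markers differed among themselves. On control 1, control 2, cKO 1 and cKO 2, Rgs5 read 5200, 442, 4828 and 649, and Kcnj8 read 502, 52.3, 601 and 148. In that order Tagln read 1104, 2013, 1716 and 898, and Notch3 read 2700, 3709, 3128 and 2575. The sum of 18 leukocyte markers was 1633 and 3429 on the control arrays and 1818 and 703 on the cKO arrays, with Ptprc (CD45), Itgam, Adgre1, Cd52 and Coro1a below the filter signal on all arrays. For 11 of 12 fibro-adipogenic markers the sums were 19168 and 22619 in control and 19235 and 21017 in cKO, with Pdgfra and Pi16 below the filter signal. For 12 muscle fibre markers they were 5583 and 2965 in control and 3098 and 4321 in cKO. The part of these cells in the values below was not tested. In such bulk samples, fewer cells of a type and less RNA per cell cannot be told apart.

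Between cKO and control cells, no gene of the set passed the test. limma, a linear model fitted over all 22519 kept probe sets with Benjamini-Hochberg adjustment, gave an adjusted p of 0.99999 for each of the 63 member probe sets. Over the whole table the call rule, an adjusted p below 0.05, was met by 0 probe sets (0% of those tested). Calcr itself did not meet it. Its signal was 2.15-fold lower in cKO, with a limma p of 0.0029 and an adjusted p of 0.99999. A gene that did not pass is therefore not shown to be unchanged. An unadjusted limma p below 0.05 was found for 0 of 28 genes, against 0.72% of the 10140 genes with a kept probe set. That count of members was 1 without control replicate 2, 3 without cKO replicate 1 and 2 with the replicate number as a block, where 101, 334 and 209 of all genes were below 0.05. The smallest unadjusted limma p in the set was 0.114, for Trp53inp1. Taking the brightest kept probe set of each gene, 18 of 28 genes read higher in cKO cells and 10 lower, while over all genes 4330 were higher and 5810 lower. The median log2 difference was 0.05 over the 28 genes and -0.04 over all genes. The all-gene split depended on the scaling: it was 5379 to 4768 after quantile normalization (median 0.02), where the members were again 18 to 10, and 5910 to 4230 with arrays centred on their median (0.05), where the members were 20 to 8. Without control replicate 1 or without control replicate 2 the split was 14 to 14 and 14 to 13. Both cKO arrays lay above both control arrays for 4 genes, Bcl2l1, Pmaip1, Ccng1 and Zmat3, where 8.53% of all genes did so. On the same brightest probe sets the reverse, cKO below control without overlap, was seen for 0 members and for 12.1% of all genes. With each array centred on its median signal, 7 members lay above without overlap, joined by Mdm2, Xiap and Casp8, while over all genes 1216 did. With 2 arrays a group, an exact permutation test of a single gene cannot go below a 2-sided p of 0.333. The 95% limma intervals of the log2 differences were 0.53 wide for Mcl1, the narrowest, and 3.13 wide for Tnfrsf10b, the widest.

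The pro-survival genes showed no difference that passed the test, and the size a difference could have was narrowly bounded for Mcl1 only. All 4 were measured; 3 were higher in cKO and 1 lower, none passed the test, and the median log2 difference was 0.10. With arrays centred on their median, all 4 were higher. Without control replicate 2, and also with unsuffixed probe sets, 2 were higher and 2 lower. Mcl1, whose short-lived product guards many cell types against mitochondrial death, read 5620 and 5485 on the control arrays and 5625 and 5541 on the cKO arrays of its brightest probe set, a mean of 5552 ± 94.9 against 5583 ± 59.3 (SD, n = 2). The groups overlapped, and the 95% interval of the log2 difference ran from -0.25 to 0.27. Mcl1 had 5 further probe sets, all bright, and each was lower in cKO by 0.03 to 0.12 on the log2 scale; in 4 of them the cKO arrays were the lower without overlap, the second brightest reading 5492 and 5322 against 4899 and 5058.

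Bcl2, the founding inhibitor of the family, read 620 and 824 in control and 478 and 973 in cKO. The cKO arrays held both the lowest and the highest value, and replicate 2 gave the higher reading in both groups. Its log2 difference was -0.07 (SE 0.39), which became 0.02 with arrays centred on their median, and its 4 other kept probe sets ranged from -0.05 to 0.33. Bcl2l1, the gene of Bcl-xL, read 168 and 196 in control and 211 and 205 in cKO. Both cKO arrays were above both control arrays, by a log2 difference of 0.20 with an SE of 0.33, so the difference was smaller than its error. On the other kept probe sets of Bcl2l1 the arrays overlapped, at 99.0 and 208 against 235 and 142, and at 128 and 128 against 227 and 88.5. Xiap, a direct inhibitor of caspases, read 590 and 406 in control and 638 and 511 in cKO, with replicates 1 above replicates 2 in both groups. Its log2 difference was 0.22 (SE 0.32); without control replicate 2 it was -0.05. Of its 6 kept probe sets 5 were higher in cKO, and the dimmest of these did not overlap (154 and 138 against 173 and 165).

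**Figure D1:**
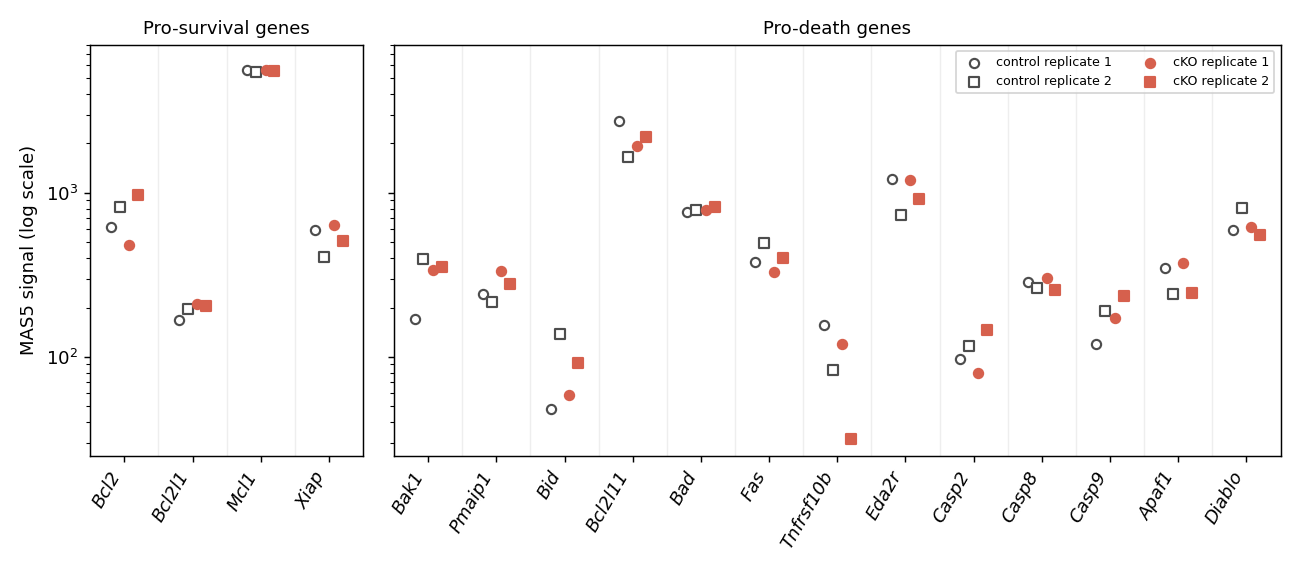
MAS5 signal (log scale) of the brightest kept probe set of 4 pro-survival and 13 pro-death genes on each array; open grey points are control and filled red points cKO, circles replicate 1 and squares replicate 2. Only Bcl2l1 and Pmaip1 have both cKO points above both control points, Mcl1 sits between 5485 and 5625 on every array, and Tnfrsf10b is lowest on cKO replicate 2. Levels of different genes cannot be compared on this axis, since probe sets differ in brightness.

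Among the pro-death members of the Bcl2 family none passed the test, with Pmaip1 as the only one without overlap on its brightest probe set. Of 7 listed, 5 had a kept probe set; 3 were higher in cKO, 2 lower, and the median log2 difference was 0.04. This median moved with the choices made: it was 0.30 with unsuffixed probe sets, 0.23 with probe sets averaged, 0.14 with arrays centred, and 0.01 to 0.20 without an array (0.15 without cKO replicate 1, where all 5 were higher; 0.20 without control replicate 2; 0.02 without control replicate 1). Pmaip1 encodes Noxa, a BH3-only protein that binds Mcl-1 and is induced by p53. It read 242 and 216 in control and 333 and 278 in cKO, a mean of 229 ± 18.0 against 306 ± 39.0 (SD, n = 2). That is a 1.33-fold higher signal (log2 difference 0.41, SE 0.33), and its 95% interval, from -0.35 to 1.17, includes 0. The difference was 0.46 between the arrays numbered 1 and 0.36 between those numbered 2. Bbc3, the gene of Puma, another BH3-only target of p53, was dim on every array, at 38.0 and 39.6 in control and 24.9 and 32.1 in cKO, below the filter signal, and its lower reading in cKO was therefore not tested.

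Bcl2l11, the gene of the BH3-only protein Bim, gave different answers by probe set. Its brightest read 2724 and 1661 in control and 1935 and 2191 in cKO, with the cKO values inside the control range and a log2 difference of -0.05 (0.05 with arrays centred). The next in brightness read 596 and 564 against 649 and 818, and another read 193 and 130 against 209 and 220. Both of these were higher on both cKO arrays, with log2 differences of 0.33 and 0.43. Bak1, the second pore former beside Bax, read 169 on control replicate 1 and 396, 337 and 355 on control replicate 2 and the cKO arrays. On this probe set the log2 difference of 0.41 (SE 0.44) thus rested on 1 array. It was 0.99 between the arrays numbered 1 and -0.16 between those numbered 2. The other probe set of Bak1 read 178 and 238 in control and 223 and 291 in cKO. Its log2 difference was 0.30, with 0.32 between the arrays numbered 1 and 0.29 between those numbered 2. Bad, a BH3-only protein regulated by growth factor signalling, read 763 and 788 in control and 781 and 819 in cKO, at a log2 difference of 0.04. Bid, which carries the death receptor signal to the mitochondria, was near the filter signal at 48.2 and 139 against 58.6 and 91.3. Replicate 2 was the brighter in both groups, and the groups overlapped.

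Of the receptors, 1 was higher in cKO and 2 lower, and the arrays of all 3 overlapped. Without control replicate 2 or without cKO replicate 1 all 3 were lower, and without cKO replicate 2 Tnfrsf10b and Eda2r were higher. Fas, the death receptor for Fas ligand and a p53 target, read 379 and 493 in control and 328 and 400 in cKO, a log2 difference of -0.26 (SE 0.32). Tnfrsf10b, the mouse receptor for TRAIL, had the difference farthest from 0 in the set, at -0.87 with an SE of 0.67, which was 0.07 without cKO replicate 2. It read 156 and 83.0 in control and 120 and 31.6 in cKO, so the lowest value was on cKO replicate 2 and replicates 1 were the higher in both groups. Its second kept probe set had the same order of arrays, at 110 and 64.6 against 95.3 and 30.9. Eda2r, a receptor of the TNF receptor family and a p53 target, read 1215 and 732 in control and 1195 and 920 in cKO, again with replicates 1 above replicates 2 (log2 difference 0.15, SE 0.32).

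Genes of the caspase machinery gave 4 higher and 1 lower readings in cKO, all with overlapping arrays, and a median log2 difference of 0.01. The split was 2 to 3 without control replicate 2 (median -0.03) and without cKO replicate 1 (-0.11), and 3 to 2 without control replicate 1 (0.07) or cKO replicate 2 (0.13). Casp9, the initiator caspase of the mitochondrial route, read 120 and 189 in control and 174 and 236 in cKO. Its log2 difference was 0.42 (SE 0.39), with 0.53 between the arrays numbered 1 and 0.32 between those numbered 2. Its other probe sets were below the filter and read lower in cKO, at -0.35 and -0.37. Apaf1, the scaffold that activates caspase 9, read 347 and 240 in control and 371 and 244 in cKO. Casp8, the initiator caspase of the death receptors, read 286 and 265 against 301 and 255. Casp2, an initiator caspase tied to the p53 response, read 97.7 and 117 against 79.8 and 146. The log2 differences of Apaf1, Casp8 and Casp2 were 0.06, 0.01 and 0.01. Diablo, the mitochondrial protein that neutralises Xiap, read 594 and 808 in control and 616 and 552 in cKO (log2 difference -0.25, SE 0.29). For the 13 pro-death genes together, 8 were higher and 5 lower with a median of 0.01, which was -0.04 without control replicate 2 and 0.10 with arrays centred.

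Among the other p53 targets, Ccng1 and Zmat3 were higher on both cKO arrays, and the rest overlapped on their brightest kept probe sets. Of 10 listed, 9 had a kept probe set; 5 were higher and 4 lower, none passed the test, and the median log2 difference was 0.05. This median was -0.14 without control replicate 1, 0.26 without control replicate 2, 0.13 without cKO replicate 1 and likewise without cKO replicate 2, 0.15 with arrays centred, 0.20 with unsuffixed probe sets and 0.17 with probe sets averaged. Ccng1 encodes cyclin G1, a p53 target that acts back on the p53 and Mdm2 loop. Its brightest probe set read 670 and 599 in control and 906 and 797 in cKO, a mean of 635 ± 50.02 against 852 ± 77.3 (SD, n = 2), or 1.34-fold higher. All 3 Ccng1 probe sets were higher without overlap, with log2 differences of 0.42, 0.44 and 0.40, though on the dimmest the groups were nearly level at 195.2 (control replicate 1) and 195.5 (cKO replicate 2). The 95% limma interval of the brightest, from -0.20 to 1.04, includes 0.

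Zmat3, the gene of an RNA-binding zinc finger protein induced by p53, had a single probe set, which read 178 and 173 in control and 238 and 283 in cKO. The control mean was 175 ± 3.01 and the cKO mean 260 ± 31.5 (SD, n = 2), without overlap. The log2 difference was 0.56, and its 95% interval, from -0.22 to 1.34, includes 0. Trp53inp1, a stress-induced nuclear protein that promotes p53 activity, read 1181 and 1486 in control and 1446 and 2618 in cKO. The high value was on cKO replicate 2, and cKO replicate 1 lay inside the control range. Its log2 difference was 0.55 (SE 0.31), with 0.29 between the arrays numbered 1 and 0.82 between those numbered 2, and its second probe set gave 0.36.

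The sestrin genes, whose products restrain mTORC1 signalling under stress, did not go together. Sesn1 read 1214 and 1619 in control and 954 and 2223 in cKO, with replicate 2 the higher in each group (log2 difference 0.05). Sesn2 read 364 and 626 against 472 and 363, with control replicate 2 standing above the other arrays (-0.21). Gadd45a, a growth arrest and DNA damage gene, read 2111 and 2814 in control and 1814 and 2435 in cKO (-0.21, SE 0.23). Plk2, a polo-like kinase induced by p53, read 1269 and 712 in control and 817 and 620 in cKO, with control replicate 1 above the rest (-0.42, SE 0.35). Phlda3, which represses Akt, read 345 and 551 against 523 and 479, the low value being control replicate 1 (0.20). Aen, a nuclease gene induced by p53, read 474 and 430 in control and 564 and 218 in cKO, so that the cKO arrays held both extremes. Its log2 difference of -0.36 was 0.32 without cKO replicate 2. The 4 kept probe sets of Aen ran from -0.69 to 0.09. The probe set at -0.69 was lower in cKO without overlap, at 96.8 and 88.0 against 73.5 and 44.2.

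The inhibitors of p53 were slightly higher in cKO with overlapping arrays. Mdm2, the main ubiquitin ligase of p53 and itself a target of it, read 1773 and 1446 in control and 1904 and 1620 in cKO, replicates 1 above replicates 2 in both groups. Its log2 difference was 0.13 (95% interval -0.37 to 0.64), and its other probe sets gave 0.21 and 0.16. Mdm4, the related inhibitor, read 506 and 673 in control and 654 and 644 in cKO (0.15, brightest probe set). On its other kept probe set it was lower without overlap, at 404 and 422 against 395 and 361 (-0.13).

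**Figure D2:**
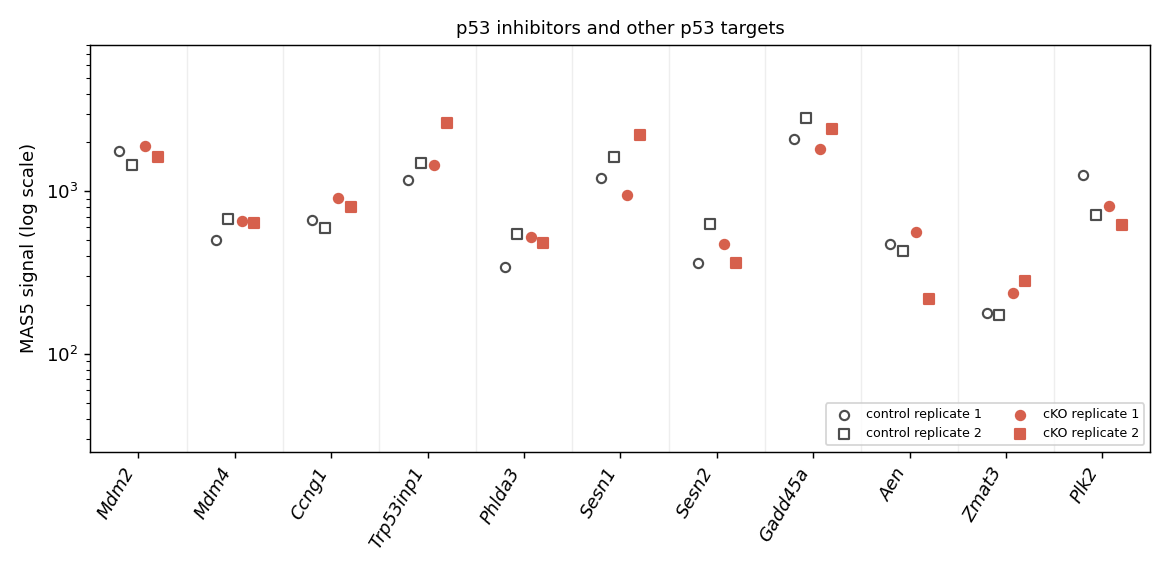
MAS5 signal (log scale) of the brightest kept probe set of 2 p53 inhibitors and 9 other p53 targets on each array; open grey points are control and filled red points cKO, circles replicate 1 and squares replicate 2. Ccng1 and Zmat3 have both cKO points above both control points; Trp53inp1 and Sesn1 have their highest point on cKO replicate 2, and Aen its lowest.

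Because p53 acts by binding DNA, the promoters of 3 targets with different readings are shown: Ccng1 (higher without overlap), Mdm2 (higher with overlap) and Gadd45a (lower with overlap). Each window holds 250 bases before and 50 after the annotated start, from RefSeq on GRCm38.p6. Capitals mark a match to the 10-base unit of the p53 response element, which reads the same on both strands as a pattern. This unit is a part of the element, and each of these windows held 1 match, so no whole element is marked. Sites outside the windows were not searched, and binding of p53 was not measured. The windows are chr11:40755237-40755536, minus strand; chr10:117710709-117711008, minus strand; and chr6:67037358-67037657, minus strand.
Ccng1: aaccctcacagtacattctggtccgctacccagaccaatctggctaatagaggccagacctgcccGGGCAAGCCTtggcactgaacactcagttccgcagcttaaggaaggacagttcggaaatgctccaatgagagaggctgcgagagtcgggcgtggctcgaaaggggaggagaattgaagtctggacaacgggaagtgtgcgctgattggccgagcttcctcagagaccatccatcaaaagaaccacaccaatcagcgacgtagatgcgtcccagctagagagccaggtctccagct
Mdm2: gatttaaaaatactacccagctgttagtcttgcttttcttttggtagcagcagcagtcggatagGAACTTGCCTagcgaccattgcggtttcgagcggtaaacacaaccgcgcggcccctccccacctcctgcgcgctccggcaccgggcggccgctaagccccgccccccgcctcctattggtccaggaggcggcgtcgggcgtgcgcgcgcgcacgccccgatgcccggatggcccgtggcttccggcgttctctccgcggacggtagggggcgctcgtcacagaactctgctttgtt
Gadd45a: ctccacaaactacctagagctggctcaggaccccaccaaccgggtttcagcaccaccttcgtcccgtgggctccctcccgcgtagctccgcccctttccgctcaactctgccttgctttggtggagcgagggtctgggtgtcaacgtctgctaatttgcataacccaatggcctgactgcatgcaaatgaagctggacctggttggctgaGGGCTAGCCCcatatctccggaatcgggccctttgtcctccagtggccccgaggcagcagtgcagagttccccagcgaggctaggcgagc

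The match begins 185 bases before the start in Ccng1, 186 bases before it in Mdm2 and 40 bases before it in Gadd45a. Of 36 promoter windows found for 25 measured members, 6 held the unit, 1 each for Ccng1, Mdm2, Gadd45a and Sesn1 and 2 overlapping windows of Aen. Of all 32851 windows in the table, 8.36% held it. The members with a match thus read higher (Ccng1, Mdm2, Sesn1) and lower (Gadd45a, Aen) in cKO cells, and the presence of these letters is a description of the window only.

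Probe sets of the same gene give a view of the error that the arrays alone do not. Over the 63 kept probe sets, 42 were higher in cKO and 21 lower, with 9 higher and 6 lower without overlap; over all 22519 kept probe sets the counts were 9256 and 13263, with 1772 and 3049 without overlap. Several of these are probe sets of the same transcript, Mcl1 alone giving 4 of the 6 lower ones, so they are not independent. Kept probe sets of Bcl2, Xiap, Bcl2l11 and Aen disagreed in sign by more than 0.3 on the log2 scale. For Bcl2l11 the mean over its probe sets was 0.23 where the brightest gave -0.05, and for Bcl2 0.14 where the brightest gave -0.07. The 3 probe sets of Ccng1 lay between 0.40 and 0.44.

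**Figure D3:**
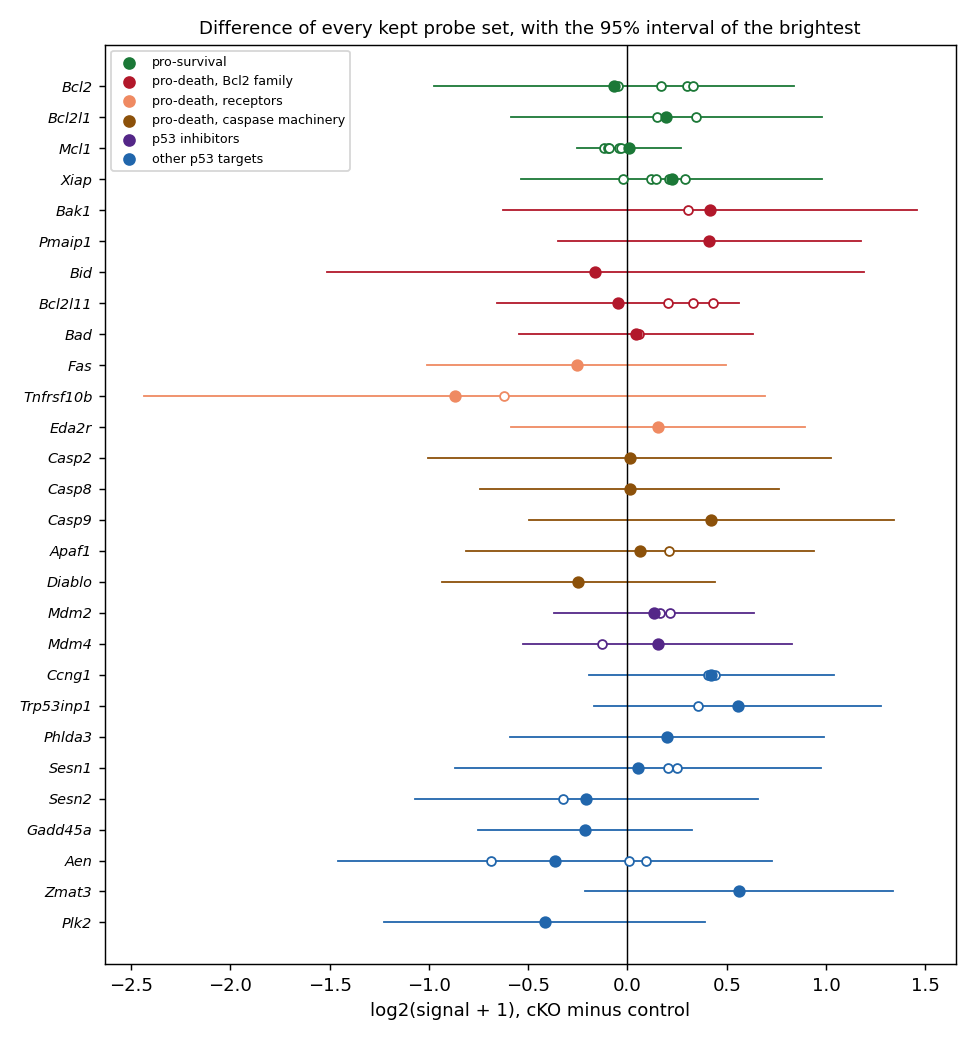
Log2 difference (cKO minus control, of signal + 1) of all 63 kept member probe sets by gene; filled points are the brightest probe set, open points the others, and lines the 95% limma interval of the brightest, coloured by role. Every interval crosses 0; the points of Ccng1 lie together at 0.40 to 0.44, while those of Bcl2l11 and Aen lie on both sides of 0.

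Arrays of the same replicate number shared their endothelial signal, so the differences were also read within each number. Between cKO 1 and control 1, 19 of 28 genes were higher in cKO (median 0.10), and between cKO 2 and control 2, 16 were (median 0.04); over all genes these medians were 0.09 and -0.19. In both comparisons 11 members were higher and 4 lower, and over the 10140 genes 1720 and 2332. Those farthest from 0 in the same direction in both were Zmat3 (0.42 and 0.70), Ccng1 (0.44 and 0.41), Pmaip1 (0.46 and 0.36), Casp9 (0.53 and 0.32) and Trp53inp1 (0.29 and 0.82) on the higher side. Tnfrsf10b (-0.38 and -1.37), Plk2 (-0.63 and -0.20), Fas (-0.21 and -0.30) and Gadd45a (-0.22 and -0.21) were lower in both. On their brightest kept probe sets, all members outside these counts of 11 and 4 turned sign between the numbers. Among them were Aen (0.25 and -0.98), Sesn2 (0.37 and -0.79), Bak1 (0.99 and -0.16), Bcl2l11 (-0.49 and 0.40) and Sesn1 (-0.35 and 0.46). By role, the medians were 0.06 and 0.15 for pro-survival genes, 0.05 and 0.02 for pro-death genes, and 0.29 and -0.20 for the other p53 targets.

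**Figure D4:**
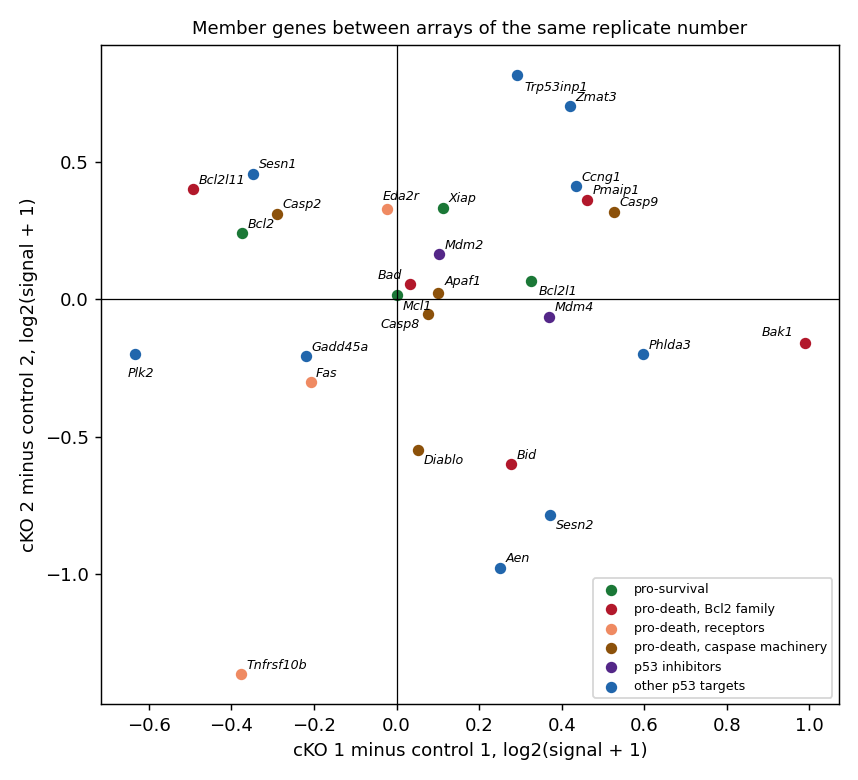
Log2 difference of each member gene between cKO 1 and control 1 (horizontal) and between cKO 2 and control 2 (vertical), brightest kept probe set, coloured by role. Zmat3, Ccng1, Pmaip1, Casp9 and Trp53inp1 lie at the upper right, Tnfrsf10b, Plk2, Fas and Gadd45a at the lower left, and Aen and Sesn2 at the lower right. The other members that turned sign lie at the lower right or the upper left.

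Members were also set apart by replicate number. On both replicate 1 arrays 9 of 28 genes read above both replicate 2 arrays, and 10 read below them, leaving 9 that overlapped. Over all 10140 genes, 21% read above and 22.4% below without overlap, so separation by number was common on these arrays. Taken either way, 19 of 28 members and 43.4% of all genes were separated, and this contrast was not tested. Perp, a p53 target that encodes a membrane protein of cell junctions, read 62.9 and 4.54 on control replicates 1 and 2 and 55.4 and 3.74 on cKO replicates 1 and 2. All 4 values were below the filter signal of 63.9, so no fold is given. The endothelial sum was higher on the same arrays (11060 and 10131, with 1351 and 1535 on the others), and its part in the Perp reading was not tested. Tnfrsf10b, Eda2r, Plk2, Apaf1, Xiap and Mdm2 were also higher on replicates 1 in both groups, by 1.44- and 1.52-fold for Apaf1 in control and cKO. Sesn1 (1.33- and 2.33-fold), Bcl2 (1.33- and 2.03-fold), and Trp53inp1 (1.26- and 1.81-fold) were higher on replicates 2, as was Bid, whose replicate 1 readings were below the filter signal.

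**Figure D5:**
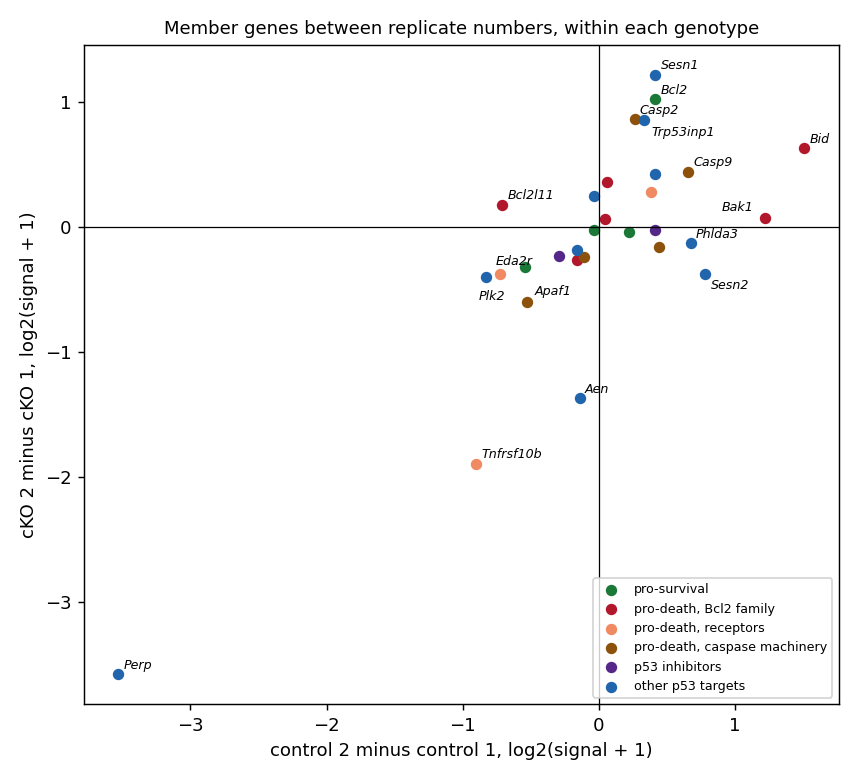
Log2 difference between replicate 2 and replicate 1 within control cells (horizontal) and within cKO cells (vertical) for 30 member genes, including the dim Bbc3 and Perp, coloured by role; genes at 0.6 or farther from 0 on an axis are named. Perp, below the filter signal on every array, lies far out at -3.53 and -3.58, where the distance depends on the added 1; Tnfrsf10b lies at -0.90 and -1.89, and Sesn1 and Bid on the higher side of replicate 2 in both genotypes.

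The wider p53 and death pathways were read from 3 further lists, and no gene of them passed the test. Of 34 further p53 pathway genes 28 were measured; 13 were higher in cKO and 15 lower (median log2 difference -0.03), with 3 higher and 4 lower without overlap, where 8.53% and 12.1% of all genes were. The split became 18 and 10 after quantile normalization and 21 and 7 with arrays centred on their median. Cdkn1a, the cell cycle inhibitor p21 and the best known target of p53, read 4487 and 4631 in control and 4459 and 4388 in cKO, lower without overlap by 0.04 on the log2 scale, though higher after quantile normalization (0.02) and with arrays centred (0.05). Its second probe set read 2891 and 3806 against 3651 and 3354, at 0.08. The checkpoint kinase gene Atm was higher without overlap on its brightest probe set (233 and 226 against 262 and 402, at 0.50). On its second kept probe set the arrays overlapped (109 and 79.9 against 106 and 137, at 0.36). Chek2, another checkpoint kinase gene, was higher without overlap (130 and 89.3 against 136 and 144, at 0.37). Trp53bp2, which encodes a p53-binding protein that favours apoptosis, was lower (739 and 824 against 602 and 584; -0.40), as was Dram1, a p53 target of the autophagy pathway (403 and 388 against 352 and 304; -0.27).

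Of 21 further pro-death genes 14 were measured; 8 were higher and 6 lower, with 5 higher and 1 lower without overlap (8.53% and 12.1% of all genes) and a median of 0.17. This median was -0.04 with a gene's probe sets averaged, -0.02 without control replicate 1, 0.40 without control replicate 2 and 0.09 without cKO replicate 1. Cradd, an adaptor of caspase 2, read 112 and 223 in control and 64.3 and 84.4 in cKO, 2.12-fold lower (log2 difference -1.09, SE 0.46). Its unadjusted limma p of 0.0476 became an adjusted p of 0.99999. Fadd, the adaptor of the death receptors (67.4 and 103 against 112 and 125; 0.50), the executioner caspase gene Casp6 (77.2 and 90.6 against 97.1 and 144; 0.50) and Aifm1, a mitochondrial flavoprotein gene (150 and 224 against 254 and 230; 0.40), were higher on both cKO arrays. Of 18 further pro-survival genes 13 were measured; 5 were higher and 8 lower (median -0.05), with 0 higher and 2 lower without overlap. The split became 7 and 6 after quantile normalization and 9 and 4 with arrays centred. The inhibitor of apoptosis gene Birc3 read 892 and 977 in control and 658 and 720 in cKO, lower without overlap (log2 difference -0.44, SE 0.25). Birc6, a large member of that family, read 2110 and 1955 against 1875 and 1829 (-0.13; 0.02 with its probe sets averaged).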

How the data were processed

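Total RNA of sorted satellite cells was biotin-labelled and hybridised to 1 array per sample, per the labels' protocols. The values are the deposited linear MAS5 signal intensities, per the submitters' processing notes; no source used here gives the scaling target. Gene symbols came from the platform annotation (probe sets with several symbols were not named), and all 77 member probe sets had a matching entry in the RefSeq gene table.

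Signals were analysed as log2(signal + 1), without further scaling; fold changes on this scale understate those of dim genes. After removal of AFFX controls, probe sets with a mean log2 value at or above the median were kept, and cKO was compared with control by limma 3.58.1 (R 4.3.3; lmFit, eBayes with intensity trend, 2 residual and 5.32 prior degrees of freedom, 2-sided), adjusted over all kept probe sets. Each gene was represented by its brightest kept probe set. The steps were tested on simulated data, with noise set to the spread left after the replicate number was fitted. No replicate effect was added, so the simulated data lack the spread that goes with the number. They cannot show how the test behaves with it. P-values measure the spread between these samples only. Members and lists were chosen with earlier results of these data known, so no p over a list is given. Described array by array by rule were members without overlap, with probe sets in disagreement or on a fixed list (Trp53, Mdm2, Bax, Bbc3, Bcl2, Bcl2l1, Mcl1, Ccng1), Calcr, Cdkn1a and up to 4 genes of each wider list; giving every array of the remaining members goes beyond that rule, which asked for ranges, and was decided after their values were seen. The alternatives tried were arrays centred on their median, quantile normalization, no filter or one at the 75th percentile, a pseudocount of 32, no trend, a replicate block, other choices of probe set, and leaving out each array.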

Additional observations from a re-analysis of the deposited data

How the results depend on the processing

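No member probe set was called (0 of 62 or 63 with the usual filter, 0 of 77 without it, 0 of 39 with the stricter one, 0 of 42 unsuffixed) under any alternative. Over all probe sets, 5 were called with the replicate block and 0 to 5 when an array was left out, none of them a member. The labels do not say that equal numbers pair samples; over all kept probe sets the deviations of same-numbered arrays correlated at 0.43 (2 pairs, across probe sets). With the block the smallest unadjusted limma p of a member was 0.0298 (Trp53inp1, adjusted p = 0.99998). The pro-survival median of 0.10 was 0.16 after quantile normalization, 0.19 with centred arrays, 0.0080 with the stricter filter (3 genes), 0.15 with probe sets averaged, and 0.055 to 0.12 without an array. The pro-death median of 0.01 was 0.086 after quantile normalization, 0.10 centred, 0.058 with unsuffixed probe sets, and -0.036 to 0.075 without an array. For the other p53 targets the median of 0.05 ran from -0.14 to 0.26 without an array, was 0.15 centred, 0.20 unsuffixed, 0.17 averaged, -0.07 without a filter and -0.08 with the stricter one. Of 28 members 17 turned sign under at least 1 alternative (32 of 357 values) and 11 did not: Bcl2l1, Pmaip1, Bad, Fas, Casp9, Diablo, Ccng1, Trp53inp1, Gadd45a, Zmat3 and Plk2. Without an array, log2 differences ran from -0.58 to 0.44 for Bcl2, -0.40 to 0.31 for Bcl2l11, -0.0094 to 0.025 for Mcl1, -0.014 to 0.28 for Mdm2, -0.053 to 0.36 for Mdm4, -0.047 to 0.49 for Xiap, -0.20 to 1.02 for Bak1, -0.92 to 0.15 for Bid, -1.82 to 0.075 for Tnfrsf10b, -0.21 to 0.52 for Eda2r, -0.42 to 0.44 for Casp2, -0.11 to 0.13 for Casp8, -0.24 to 0.36 for Apaf1, -0.14 to 0.53 for Phlda3, -0.56 to 0.66 for Sesn1, -0.60 to 0.18 for Sesn2 and -1.05 to 0.32 for Aen. Signs also turned for Bcl2 (0.025 centred, 0.14 averaged), Bcl2l11 (0.046 centred, 0.33 unsuffixed, 0.23 averaged), Mcl1 (-0.12 unsuffixed, -0.064 averaged), Cdkn1a (0.015 after quantile normalization, 0.049 centred, 0.017 averaged) and Birc6 (0.020 averaged). The causes were not tested. The 95% interval was widest for the dim Tnfrsf10b, and only 2 arrays a group limit the precision throughout.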
